A study of Mus musculus with 6 samples.

Results

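Alveolar fibroblasts that express Tnc, the gene of the matrix glycoprotein tenascin-C, were described in single-cell transcriptomes of aged mouse lung. The cells were chosen by their own unique molecular identifier (UMI) counts, each UMI standing for 1 captured transcript molecule. A barcode entered the gate with at least 1 UMI each of Pdgfra, Tcf21 and Npnt, at least 2 UMIs of Tnc, at most 1 UMI of Hhip and none of Mmp3, Cdh5 or Ptprc. Quality limits were a minimum of 500 genes and 1000 UMIs and a maximum of 15% mitochondrial UMIs. The gate held 2349 of the 88616 barcodes that passed the quality limits, or 2.65%. They were 17.8% of the 13201 barcodes that met every condition except the one on Tnc, which are called alveolar fibroblasts below. Because these 8 genes chose the cells, their levels in the gate are descriptions and not results.

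Lungs came from 6 male C57BL/6 mice aged 21 months, with 1 library per mouse. The 3 mice labelled p16-DTR carried p16-CreERT2, a tamoxifen-inducible Cre recombinase under the p16 promoter, together with R26-LSL-DTR, a diphtheria toxin receptor that Cre switches on. The 3 control mice carried p16-CreERT2 alone. Tamoxifen was given to all 6 mice on 5 days, diphtheria toxin on 5 days after an interval of 2 weeks, and lungs were taken after a further 2 weeks. Controls therefore shared the Cre allele and both agents. For every library 20000 CD45-negative and 9000 CD45-positive sorted cells were mixed, so shares of all cells are partly set by the sort.

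Alveolar fibroblasts lie in the walls of the air sacs, beside the alveolar epithelium. They supply growth factors such as Fgf10 and build the elastic and collagen matrix of the septum. Tenascin-C is scarce in most resting adult tissue and is made at sites of repair, where it binds integrins, syndecans and the epidermal growth factor receptor. Much of its expression is known to follow TGF-beta, a growth factor that is held in the matrix in a latent form by the latent TGF-beta binding proteins.

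The 3 libraries labelled p16-DTR gave 347, 555 and 432 gated cells, and the 3 control libraries gave 570, 146 and 299. Library totals ran from 254200305 to 344421685 UMIs, and the summed UMIs of the gated cells from 3900809 in control library 2 to 14409026 in control library 1. Gated cells had median counts of 23592 to 26416 UMIs per library, against 21854 to 23673 in alveolar fibroblasts with no Tnc UMI. Mitochondrial medians of the gated cells were 0.973% to 1.297%, and 0% to 3.68% of them were predicted doublets. Pairs of libraries shared 59 to 94 barcode sequences. Cdkn2a, the gene of p16, went against the label p16-DTR: its level was above that of the controls in each of the 3 p16-DTR-labelled libraries (values with the group comparison), although tamoxifen and toxin in mice with the receptor were meant to remove cells with high p16. The group is therefore named only by its label, and each direction between the groups holds for the labels as deposited. Whether labels were exchanged or an allele alters Cdkn2a counts was not tested.

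Tnc counts within the gate were graded. Of the 13201 alveolar fibroblasts, 9998 had no Tnc UMI, 854 had 1, 471 had 2, 641 had 3 to 4, and 1237 had 5 or more. The last class made up 52.7% of the gate. The median was 4 to 5 Tnc UMIs per gated cell in each library, and the highest cell, in p16-DTR library 3, held 794. As a check on free RNA in the droplets, 0.113% to 0.744% of B cells had at least 2 Tnc UMIs, at lower medians of 13007 to 16364 UMIs. Of all B cells, 10.3% to 18.4% per library were predicted doublets.

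The labelled cell type was checked against its markers, given as counts per 1000000 UMIs of the summed cells (CPM). Genes typical of alveolar fibroblasts stood at differing levels in the gate. Inmt, a methyltransferase typical of these cells, averaged 4550 ± 695 CPM (SD, n = 6 libraries) in the gate, 5227 ± 769 in alveolar fibroblasts with no Tnc UMI and 2664 ± 638 in Pi16 fibroblasts. Pi16 fibroblasts were taken as barcodes with Pdgfra, no Mmp3 and at least 2 UMIs of Pi16, a marker of adventitial fibroblasts around vessels and airways. Scube2, a secreted protein that releases hedgehog ligands, averaged 454 ± 105 CPM in the gate and 41.0 ± 8.83 in Pi16 fibroblasts. Adh1, also counted among alveolar fibroblast genes, went the other way, with 174 ± 10.5 CPM in the gate and 553 ± 58.4 in Pi16 fibroblasts.

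The 4 other genes given as markers of the population did not behave alike. Levels are given first for the p16-DTR-labelled libraries (1, 2 and 3) and then for the control libraries. Ltbp1, a latent TGF-beta binding protein (chromosome 17, 75005568 to 75392512, mm10), stood at 876, 1526 and 1211 CPM and at 829, 1054 and 1029 in the gate. In alveolar fibroblasts with no Tnc UMI it stood at 685, 1036 and 826, and at 592, 707 and 670. It was higher in the gate in 6 of 6 libraries, with a mean of 1088 ± 254 against 753 ± 158 CPM.

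Fgf10, a growth factor for lung epithelium, had a mean of 312 ± 51.8 CPM in the gate and 343 ± 43.2 in the cells with no Tnc UMI, and was lower in the gate in 6 of 6 libraries. Adamtsl2, a secreted glycoprotein of microfibrils, averaged 153 ± 61.8 against 148 ± 51.4 CPM. Col13a1, a transmembrane collagen, averaged 449 ± 69.2 against 417 ± 75.7 CPM. Adamtsl2 was higher in the gate in 4 of 6 libraries and Col13a1 in 5 of 6. Of the 4 given markers that the rule did not use, Ltbp1 was thus the one higher in the gate in 6 of 6 libraries. The same genes were lower in Pi16 fibroblasts, where Adamtsl2 averaged 29.5 ± 13.1 and Col13a1 124 ± 8.60 CPM. In fibroblasts with Mmp3, however, Adamtsl2 averaged 141 ± 41.8 CPM, near its level in the gate. In fibroblasts with at least 2 Hhip UMIs it averaged 94.35 ± 36.6.

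**Figure D1:**
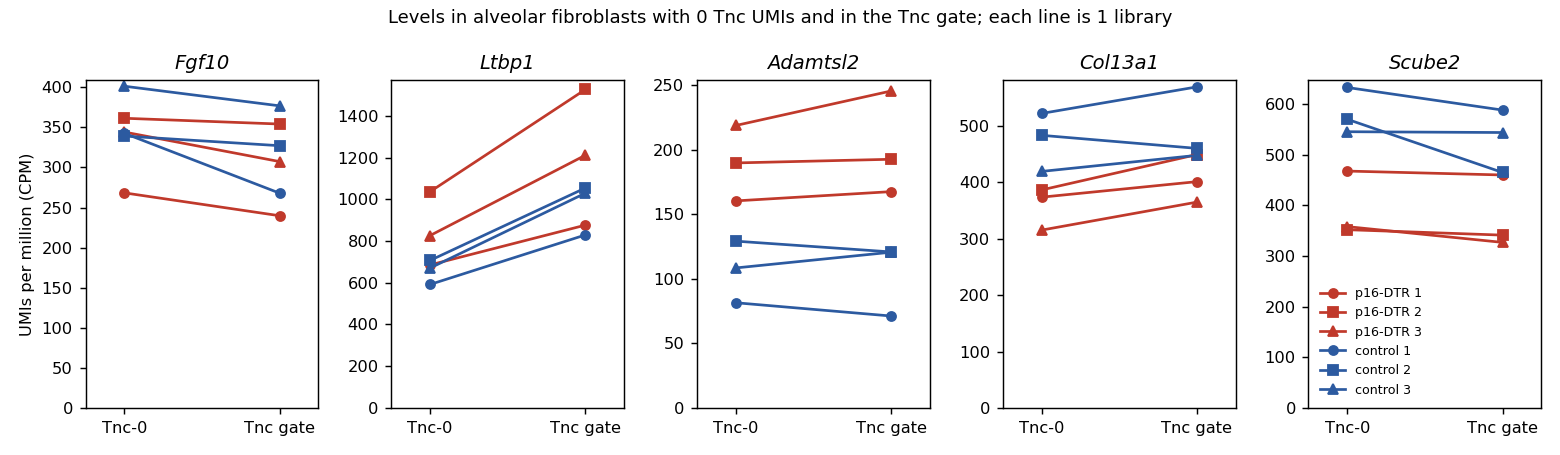
Levels in CPM (vertical axes, from 0) of 4 given markers and Scube2 in alveolar fibroblasts with 0 Tnc UMIs and in the Tnc gate; each line joins the values of 1 library, with the p16-DTR-labelled libraries in red and controls in blue. Ltbp1 is higher in the gate in 6 of 6 libraries, whereas Fgf10 is lower in 6 of 6 and the lines of Adamtsl2 run nearly flat.

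Values of cells just inside and just outside the Tnc threshold are given as a description. Ltbp1 averaged 1021 ± 234 CPM in cells with 2 Tnc UMIs and 896 ± 277 in cells with 1. Thbs1, the gene of thrombospondin-1, averaged 1012 ± 246 and 975 ± 209 CPM in the same cells, against 770 ± 147 with no Tnc UMI and 1803 ± 303 with 5 or more. Some scarce genes differed more across the threshold: Adamtsl1 averaged 0.448 ± 0.392 CPM with 2 Tnc UMIs and 3.52 ± 3.10 with 1.

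The first question was how gated cells differ from alveolar fibroblasts of the same mice that have no Tnc UMI. The 2 classes were compared within libraries with edgeR's quasi-likelihood test over 14148 genes, and a gene was called at a Benjamini-Hochberg adjusted p under 0.05. Gated cells carried more Thbs1, Ltbp2, Ctgf, Loxl2 and Tagln RNA, and less RNA of 6 of 8 tested genes that mark adventitial fibroblasts. In all, 786 genes (5.56%) were higher in the gate and 943 (6.67%) were lower. These percentages are the background against which the counts for each group of genes are read.

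Thbs1 (chromosome 2, 118111876 to 118127133), whose product frees TGF-beta from its latent complex, stood at 999, 1805 and 1447 CPM in the gate of the p16-DTR-labelled libraries and at 1408, 1592 and 1540 in that of the controls. In cells with no Tnc UMI the values were 518, 958 and 792, and 762, 857 and 731. The lowest gated value, in p16-DTR library 1, was above the highest value of the comparison class. The log2 fold change was 0.94 (SE 0.03, edgeR adjusted p = 1.36e-07).

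Ltbp2, a microfibril protein of the Ltbp family (chromosome 12, 84783212 to 84876532), had 37.8, 37.9 and 105 CPM in the gate of the p16-DTR-labelled libraries and 34.6, 81.5 and 22.6 in that of the controls. Cells with no Tnc UMI had 13.1, 24.2 and 29.9, and 6.02, 8.24 and 7.12. Each library rose, as the rule for naming genes by fold change required. The ranges overlapped, since control library 3 in the gate lay below p16-DTR libraries 2 and 3 outside it. The log2 fold change was 1.90 (SE 0.26, edgeR adjusted p = 0.000663).

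Ctgf, also named Ccn2, a matricellular target of TGF-beta, had 1133, 868 and 846 CPM in the gate of the p16-DTR-labelled libraries and 664, 896 and 733 in that of the controls. Outside the gate it had 701, 664 and 442, and 383, 522 and 469. The ranges overlapped, but it was higher in 6 of 6 libraries, by 0.72 on the log2 scale (SE 0.06, edgeR adjusted p = 2.31e-05).

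Ccl2, a chemokine that attracts monocytes (chromosome 11, 82035571 to 82037453), had the highest fold change among the genes named by rule as higher. It stood at 42.1, 10.1 and 41.8 CPM and at 46.0, 15.6 and 17.0 in the gate, against 8.59, 2.41 and 4.10, and 10.9, 6.39 and 6.18 outside it. Each library rose, as the naming rule required, although p16-DTR library 2 in the gate lay below control library 1 outside it. The log2 fold change was 2.12 (SE 0.20, edgeR adjusted p = 7.23e-05). Its level did not follow the Tnc count evenly, and libraries spread widely. It averaged 6.44 ± 3.05 CPM with 0 Tnc UMIs, 2.33 ± 2.56 with 1 and 6.02 ± 7.17 with 2. With 3 to 4 it averaged 30.4 ± 46.5 and with 5 or more 32.7 ± 33.2. In p16-DTR library 1 and control library 2, cells with 5 or more had 6.31 and 4.28 CPM, less than cells with none. Fibroblasts with Mmp3 averaged 40.7 ± 21.5 CPM of Ccl2, Pi16 fibroblasts 27.2 ± 24.9 and the gate 28.8 ± 16.2. Without cells that carried adventitial transcripts (defined below) the edgeR adjusted p of Ccl2 was 0.0723, with a log2 fold change of 1.48.

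The other genes named as higher were of several kinds. Being higher in 6 of 6 libraries was a condition of naming them and is not a result. Loxl2, an enzyme that cross-links collagen and elastin, averaged 58.0 ± 10.8 against 28.2 ± 7.45 CPM (n = 6). Tagln, an actin-binding protein of contractile cells, averaged 302 ± 74.2 against 161 ± 47.3, and Tnfrsf12a, the receptor of the cytokine TWEAK, 60.3 ± 12.01 against 35.2 ± 10.3. Kcnmb2, an accessory subunit of calcium-activated potassium channels, averaged 32.6 ± 14.5 against 9.53 ± 3.09 CPM. Chrna7, a nicotinic acetylcholine receptor subunit, averaged 54.4 ± 18.9 against 32.0 ± 6.89. Akap6, an anchoring protein for protein kinase A, Gpr176, an orphan receptor, Otud7a, a deubiquitinase, and Apbb1ip, an adaptor of integrin activation, had log2 fold changes of 1.21, 0.93, 0.77 and 0.76. The adjusted p of these 9 genes by edgeR ran from 9.81e-06 for Otud7a to 0.00443 for Apbb1ip. Not all were highest in the gate: Apbb1ip averaged 49.0 ± 16.4 CPM there, 101 ± 14.6 in fibroblasts with Mmp3 and 144 ± 9.69 in Pi16 fibroblasts. Akap6 went the other way, with 25.8 ± 5.30, 11.4 ± 1.85 and 1.94 ± 0.710 CPM in the same classes.

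**Figure D2:**
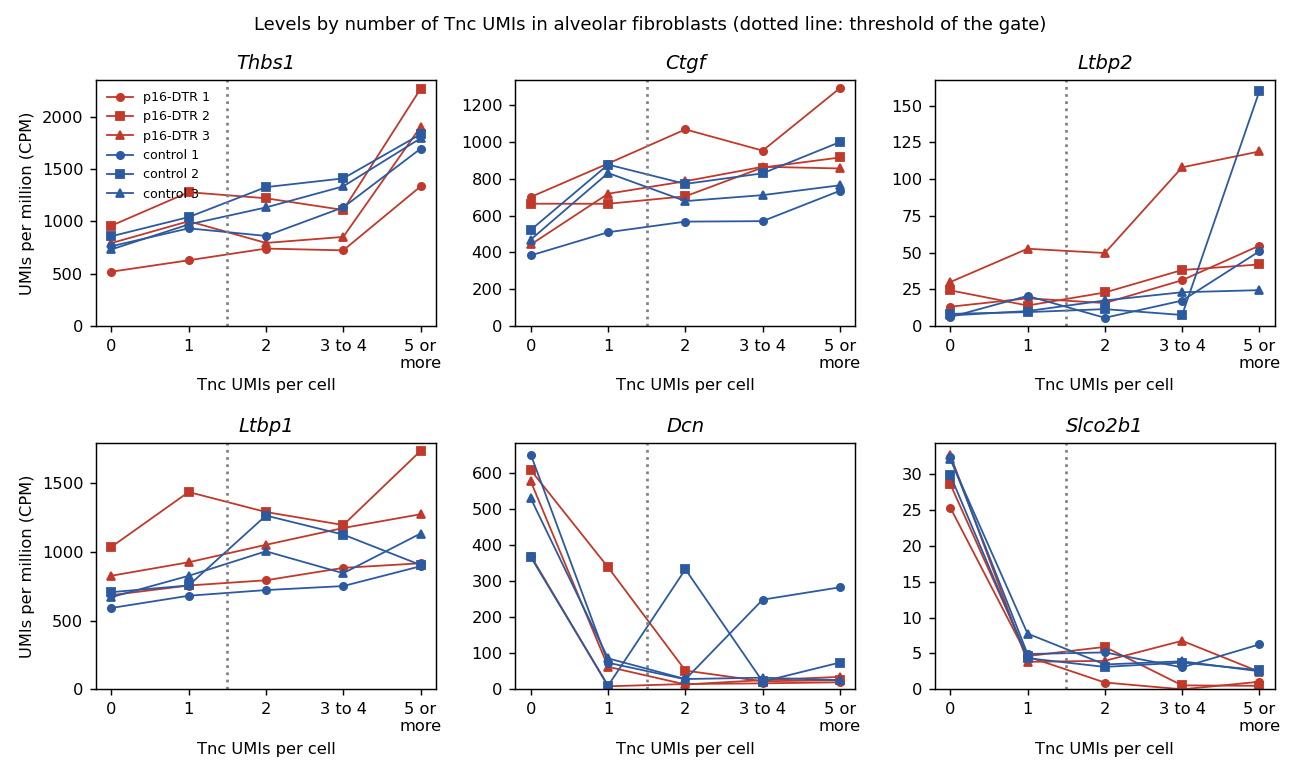
Levels in CPM (vertical axes, from 0) in alveolar fibroblasts sorted by their number of Tnc UMIs (horizontal axes); each line is 1 library and the dotted line is the threshold of the gate. Mean Thbs1 goes from 770 CPM at 0 Tnc UMIs to 1803 at 5 or more, whereas mean Slco2b1 is 30.2 CPM at 0 and 5.02 at 1.

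Of the 12 genes named as lower, Dcn, Pi16 and Serpinf1 were on the fixed list of adventitial markers. Dcn, the proteoglycan decorin (chromosome 10, 97479609 to 97518143), stood at 17.4, 28.8 and 28.7 CPM in the gate of the p16-DTR-labelled libraries and at 230, 124 and 27.9 in that of the controls. Cells with no Tnc UMI had 371, 609 and 577, and 652, 367 and 530. Control libraries 1 and 2 stood above the others in the gate, and the 2 classes did not overlap. Its log2 fold change was -3.25 (SE 0.43, edgeR adjusted p = 0.000562). For scale, Dcn averaged 7942 ± 863 CPM in Pi16 fibroblasts and 4773 ± 710 in fibroblasts with Mmp3.

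Slco2b1, an organic anion transporter, had 0.704, 1.34 and 3.81 CPM and 5.27, 3.08 and 3.08 in the gate, against 25.4, 28.7 and 32.8, and 32.4, 29.9 and 32.1 outside it. The log2 fold change was -3.38 (SE 0.21, edgeR adjusted p = 6.75e-06). Gated libraries ranged widely at these low levels, but each lay below every library of the other class. Most of this step was between 0 and 1 Tnc UMI, with 30.2 ± 2.85 and 5.02 ± 1.40 CPM, and cells with 5 or more Tnc UMIs had 2.57 ± 2.02. Dcn moved in the same way, with 518 ± 122, 96.5 ± 123 and 77.1 ± 103 CPM in these 3 classes.

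Of the remaining genes named as lower, Pi16 and Serpinf1 mark adventitial fibroblasts. Sema3d, a guidance ligand, and Gabra3, a GABA receptor subunit, had log2 fold changes of -3.92 each. Igfbp4, which binds insulin-like growth factors, averaged 13.5 ± 8.19 against 122 ± 18.5 CPM, and Rbp4, the retinol carrier, 2.36 ± 2.09 against 21.6 ± 5.80. Opcml, Adamtsl1, 3632451O06Rik and Plce1 had log2 fold changes between -3.17 and -3.04. All 24 genes named by fold change in either direction were called in each of the 6 fits that left out 1 library.

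Other transcripts moved with this comparison. The 9 adventitial markers of a fixed list summed to 131 to 412 CPM in the gate and to 565 to 957 CPM in cells with no Tnc UMI, and all 9 were detected in both. Of 8 that could be tested, 6 were lower in the gate. None of these calls was kept in the repeat without adventitial transcripts described next, where Col14a1 and Cd34 were higher and none of 6 tested was lower. For Pi16, Serpinf1 and Dcn that outcome was fixed, since the repeat selects cells by them. The other lower calls were Ebf1, Ly6c1 and Dpp4. The 5 alveolar type 2 markers summed to 70.6 to 114 CPM in the gate of 5 libraries and to 371 to 957 CPM outside it. Control library 3 had 3222 CPM of them in the gate, where 3 cells with more than 100 UMIs of Sftpc, the surfactant protein gene of alveolar type 2 cells, held 17715 of the 18434 Sftpc UMIs. The 5 pericyte markers summed to 8.12 to 27.0 CPM in the gate and to 19.9 to 46.5 outside it, and 4 of them, Higd1b, Postn, Kcnk3 and Cox4i2, were lower in the gate, also without adventitial transcripts (defined next). The 5 leukocyte markers, with Ptprc at 0 by the rule, summed to 31.2 to 44.6 CPM in the gate of 5 libraries, 498 in that of control library 3 and 61.9 to 128 outside it. Lyz2 is on both this list and the alveolar type 2 list, and the part of the 3 Sftpc-rich cells in the 498 CPM was not tested. The part of these transcripts in the other calls was not tested. Ribosomal protein genes gave 2.01% to 2.68% of the UMIs of gated cells and 2.76% to 3.04% of those with no Tnc UMI.

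The comparison was therefore repeated on cells with no Pi16 or Serpinf1 UMI and at most 2 Dcn UMIs, a limit chosen after the values had been seen. These are called cells without adventitial transcripts for short, although other adventitial markers were still detected in them. The repeat gave 721 genes higher (5.29%) and 651 lower (4.77%). Of the first calls, 498 of the 786 higher and 452 of the 943 lower were kept in their direction. Of the 1641 calls that could be tested again, 56 had the opposite sign. Among the calls kept were Thbs1, with a log2 fold change of 0.95, Ltbp2 with 1.55, Ctgf with 0.62, Loxl2 with 1.18, Tagln with 0.76 and Slco2b1 with -2.82. Of the genes named by fold change, Ccl2 and Adamtsl1 were no longer called, the latter at -0.96 (edgeR adjusted p = 0.142), nor was Dcn, which the limit itself removes. Sema3d was at -2.24, Gabra3 at -2.33, Igfbp4 at -1.69, Opcml at -1.29 and Plce1 at -1.53, all still called but with smaller differences. Of the list members named by rule, Adh1, Plin2, Fgf1, Dusp6, Tgfbi, Col15a1, Col4a3, Fzd2, Chrd, Gadd45g, Cdkn2c, Il33, Gbp3, Gbp2, Bst2, Egr3, Socs3 and Dusp1 were also no longer called. The part of adventitial transcripts in the other calls was not tested.

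**Figure D3:**
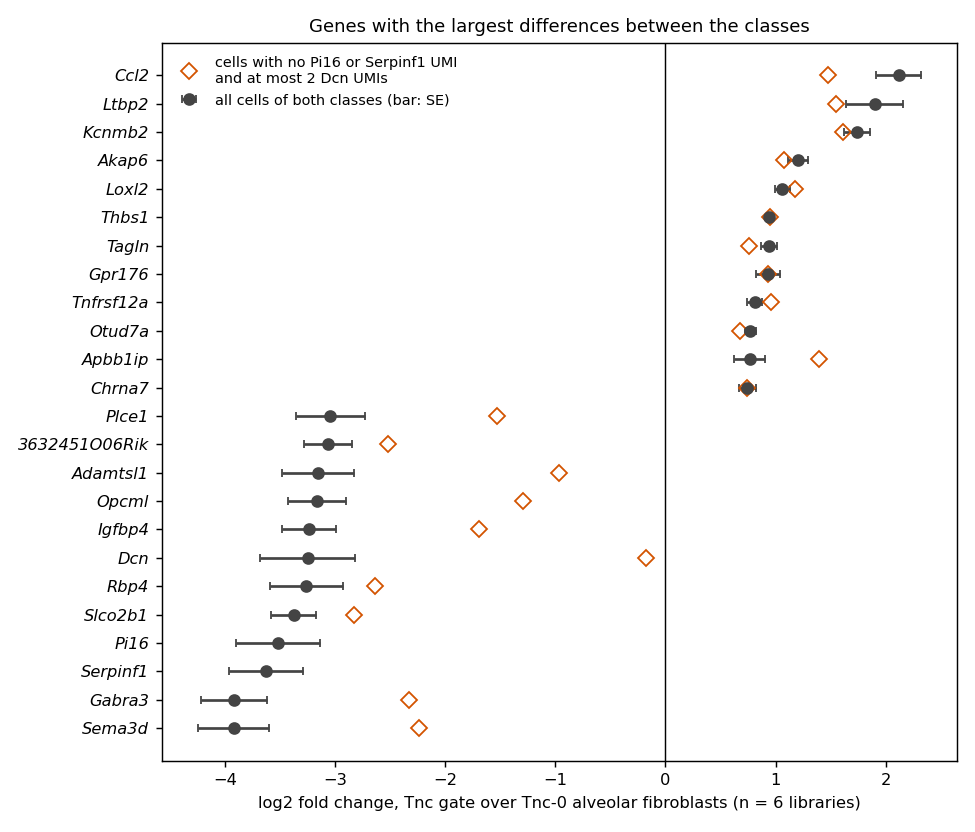
Log2 fold change of the Tnc gate over alveolar fibroblasts with 0 Tnc UMIs (horizontal axis) for the 24 genes named by fold change; dark points are all cells with the SE over 6 libraries, open diamonds are cells without adventitial transcripts. Diamonds of the higher genes lie between 0.675 and 1.62, and that of Dcn lies at -0.17; Pi16 and Serpinf1 have none because the limit removes them.

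The pathway lists give the wider view. In the list of TGF-beta signalling and latency, 12 of 26 tested genes were higher in the gate and 4 lower, with a median log2 fold change of 0.12 against 0.0082 over all genes. Higher members included the ligands Tgfb1 and Tgfb2, the receptors Tgfbr1 and Tgfbr2, the activator Thbs1, and Ctgf and Smad7. The Ltbp family members Ltbp1, Ltbp2 and Ltbp4 were also higher, of which Ltbp2 is not known to bind latent TGF-beta. Ltbp1 is counted here although it is also a marker given for these cells, chosen with earlier results of these data known. Tgfbi, a matrix protein, averaged 1.38 ± 1.12 against 6.33 ± 2.16 CPM and was lower with Lrrc32, Tgfb3 and Pmepa1. In the cells without adventitial transcripts, 14 of 26 were higher and none was lower. Of the 12 higher calls 11 were kept there, and Smad7 was not.

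Collagens were called in both directions, and types IV and VI had members on either side. Of 29 tested, 13 were higher, with log2 fold changes of 0.179 to 0.654. These were genes of the fibrillar types I, III, V and XXVII (Col1a1, Col3a1, Col5a1, Col5a2, Col5a3, Col27a1), of the basement membrane chains Col4a1, Col4a2 and Col18a1, of type VI (Col6a1, Col6a2, Col6a3), and Col12a1. The 7 lower ones were Col28a1, Col15a1, Col4a3, Col4a4, Col4a5, Col4a6 and Col6a6. Col4a6, a chain of another basement membrane network, averaged 18.2 ± 5.11 against 51.0 ± 10.7 CPM, with a log2 fold change of -1.48. Without adventitial transcripts, the 13 higher genes were kept among 16, and Col4a5 and Col4a6 were the only lower ones of 27 tested; Col15a1 had a log2 fold change of 0.43 there.

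Elastic fibre genes gave 7 higher and 4 lower calls of 19. Loxl2, Loxl1, Eln, which encodes elastin, Fbn1, Emilin1, Ltbp2 and Ltbp4 were higher. Mfap4 averaged 1457 ± 252 against 2015 ± 320 CPM and Mfap5 106 ± 32.8 against 157 ± 37.4, both being microfibril-associated proteins, and Fbln5 was lower too. Fbln2 was lower by -1.13 in all cells and higher by 1.78 without adventitial transcripts, so its direction differed between the 2 sets of cells.

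In the list of tenascins and their receptors 5 of 12 tested genes were higher and none was lower, with a median log2 fold change of 0.19. Tnxb, the gene of tenascin-X, averaged 325 ± 51.3 against 256 ± 45.2 CPM. The receptors were the syndecan Sdc4 with 272 ± 45.9 against 215 ± 30.3, the integrin subunits Itga9 with 481 ± 39.9 against 396 ± 27.5 and Itgb1, and Egfr with 574 ± 73.9 against 484 ± 81.8. All 5 were kept without adventitial transcripts, among 7 higher.

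Of 18 FGF signalling genes, 8 were higher and none was lower. They included the feedback inhibitors Spry1, with 155 ± 12.02 against 121 ± 10.9 CPM, Spry2, with 58.3 ± 10.2 against 44.0 ± 6.30, and Spred1. The transcription factor Etv1, the phosphatase Dusp6, the ligands Fgf1 and Fgf2 and the receptor Fgfr1 were the others. Without adventitial transcripts 4 of these 8 were kept and 1 gene of the list, Fgfr4, was lower. Fgf1, Dusp6, Fbln2, Col15a1, Col4a3, Slc27a3, Chrd and Gadd45a were each called in fewer than 6 of the 6 fits without 1 library (2, 5, 2, 1, 2, 3, 4 and 5 fits).

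Alveolar fibroblast identity genes were called lower more often than higher, 6 against 3 of 19. The lower ones were Gdf10, a BMP-family ligand, with 4.37 ± 1.503 against 17.9 ± 4.32 CPM, Mfap4, Slc36a2, Adh1, Vegfd and Inmt. Ces1d, Macf1 and Cdh11 were higher, by 0.0955 to 0.211 on the log2 scale. Without adventitial transcripts 10 of 19 were lower and none was higher, and 5 of the 6 lower calls were kept.

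Other lists moved less evenly. Of 19 contractile genes Tagln, Des and Cald1 were higher and Postn was lower. The 5 smooth muscle markers all had log2 fold changes above 0 (median 0.848) and none was called. They summed to 23.2, 124 and 307 CPM in the gate of the p16-DTR-labelled libraries and to 53.7, 85.1 and 117 in that of the controls, against 55.6, 48.9 and 38.0, and 30.3, 94.0 and 88.5 outside it. Their part in the contractile calls was not tested. Of 26 BMP genes 8 were higher and 4 lower, among them the inhibitor Chrdl1 with 82.3 ± 14.2 against 117 ± 14.0 CPM. Of 27 Wnt genes 3 were higher and 4 lower, with the inhibitor Sfrp1 at 17.1 ± 6.33 against 58.6 ± 11.5. Of 33 genes of the senescence secretome 4 were higher, among them Ccl2 and Igfbp3, and 9 were lower, among them Cxcl12, Il33 and Ccl11. Without adventitial transcripts 2 of these 4 higher and 4 of these 9 lower calls were kept, among 7 in each direction, and Il33 was not called at -1.43 (edgeR adjusted p = 0.217). Pparg, a regulator of lipid storage, averaged 65.5 ± 30.7 against 45.0 ± 18.1 CPM, and Apoe, a lipid carrier, 1166 ± 333 against 1524 ± 416; 2 of 19 lipid genes were higher and 2 lower.

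Interferon response genes had 0 higher and 3 lower calls of 27. The 3, Gbp3, Gbp2 and Bst2, were called in 1, 2 and 2 of the 6 fits without 1 library, and none of them was kept without adventitial transcripts. Of 24 arrest and p53 genes 4 were higher and 2 lower, and of 18 glucocorticoid-induced genes 2 were higher, among them Sgk1 with 92.9 ± 28.0 against 61.8 ± 19.99 CPM, and 1 was lower. The other higher one, Dusp1, and the lower one, Pdk4, were called in 1 and 2 of the 6 fits without 1 library. Dissociation stress genes, which rise during tissue digestion, had 5 higher and 4 lower calls of 30. Without adventitial transcripts 7 of 30 were higher and 1 was lower, beside 5.29% and 4.77% of all genes. Of the first calls 3 higher and 1 lower were kept there. Cdkn1a, the gene of p21, averaged 121 ± 21.9 against 106 ± 11.9 CPM (log2 fold change 0.19, edgeR adjusted p = 0.0519). It was called by DESeq2 (adjusted p = 0.0244) and without adventitial transcripts (log2 fold change 0.26, edgeR adjusted p = 0.0292). Cdkn2a averaged 2.64 ± 2.86 in both classes, with an edgeR adjusted p of 0.995. In the gate this mean pools 4.81, 5.52 and 5.38 CPM of the p16-DTR-labelled libraries with 0, 0 and 0.134 of the controls. It thus describes neither group. The gene could be tested in 3 of the 6 fits without 1 library and was called in none.

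The next question was whether Tnc expression among alveolar fibroblasts differed between the groups. In the p16-DTR-labelled libraries 16.5%, 34.2% and 30.9% of alveolar fibroblasts were in the gate, and in the control libraries 14.5%, 8.05% and 12.8%. The groups did not overlap, although p16-DTR library 1 lay only a little above control library 1. The means were 27.2% ± 9.42 and 11.8% ± 3.35 (SD, n = 3 each), a difference of 15.4 percentage points. The exact two-sided permutation p was 0.1, the smallest that this test allows for 3 libraries against 3, so it could not fall below 0.05.

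The separation depended on how cells were counted. Cells with at least 5000 UMIs and no Cdh5 or Ptprc UMI were also thinned to 5000 UMIs. The gate was then applied to the thinned counts, which left about 10840 cells in the denominator in place of 13201. The shares were 5.04%, 13.3% and 10.7% against 6.39%, 2.59% and 4.89%. The groups then overlapped, with means of 9.71% and 4.62% (exact permutation p = 0.2). Of all barcodes with no Ptprc UMI, the gate held 3.91%, 6.39% and 5.25% against 5.01%, 1.71% and 2.99%, which also overlapped (exact permutation p = 0.2). Alveolar fibroblasts as a whole were 23.7%, 18.7% and 17.0% of those barcodes in the p16-DTR-labelled libraries and 34.5%, 21.3% and 23.4% in the controls (exact permutation p = 0.3).

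**Figure D4:**
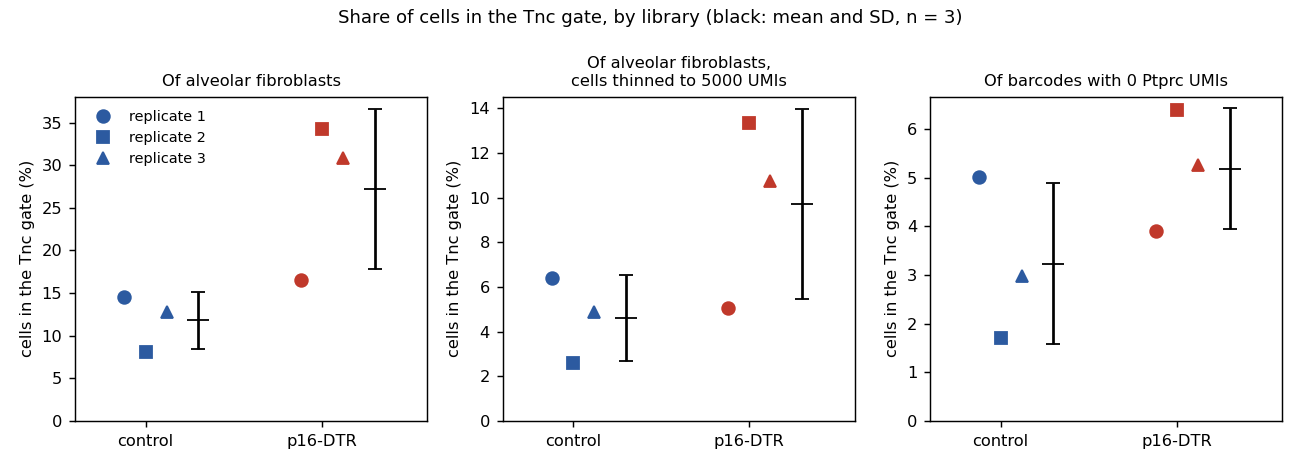
Percentage of cells in the Tnc gate (vertical axes, from 0) in each library, as a share of alveolar fibroblasts, of alveolar fibroblasts after thinning to 5000 UMIs, and of barcodes with 0 Ptprc UMIs; black marks are the mean and SD of 3 libraries. The groups do not overlap in the left panel (16.5% to 34.2% against 8.05% to 14.5%) and overlap in the other 2.

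Tnc levels summed over all alveolar fibroblasts, a gate without a condition on Tnc, were 52.4, 156 and 152 CPM in the p16-DTR-labelled libraries and 83.7, 27.4 and 48.5 in the controls. Library 1 of the group labelled p16-DTR lay below control library 1, so the groups overlapped. The log2 fold change was 1.19 (SE 0.48, edgeR adjusted p = 0.207 over 16356 genes, of which 0.0611% were called, 0.0306% as higher and 0.0306% as lower). Leaving out single libraries gave log2 fold changes of 0.88 to 1.68. In this annotation Tnc lies on the minus strand of chromosome 4, from 63959785 to 64047015.

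The shares were also taken in other fibroblast classes, and the groups stood apart in 2 of 3. At least 2 Tnc UMIs were found in 9.33%, 15.7% and 21.3% of fibroblasts with Mmp3 in the p16-DTR-labelled libraries and in 7.81%, 3.16% and 7.06% in the controls (exact permutation p = 0.1). Among fibroblasts with at least 2 Hhip UMIs, the shares were 8.31%, 10.1% and 17.1% against 3.63%, 7.66% and 4.78% (exact permutation p = 0.1). Pi16 fibroblasts had 0%, 3.82% and 0.870% against 1.09%, 2.44% and 0.444% (exact permutation p = 0.9), and there the groups overlapped. B cells, the comparison for free RNA, had at least 2 Tnc UMIs in 0.563% ± 0.166 of cells in the p16-DTR-labelled libraries and 0.343% ± 0.215 in the controls (exact permutation p = 0.3). At least 1 Tnc UMI was found in 1.26%, 1.81% and 1.49% of B cells against 0.661%, 0.452% and 0.987%, which did not overlap, with means of 1.52% and 0.700%. Predicted doublets made up 10.3% to 18.4% of B cells per library. Among neutrophils, taken with no Cdh5 or Pdgfra UMI, at least 1 Tnc UMI was found in 0.328%, 0.806% and 0.289% against 0.618%, 0% and 0.461%, which overlapped. The part of free RNA in the shares of fibroblasts was not tested. The 4 comparisons of Tnc-positive shares in fibroblast classes, that in the alveolar class included, were made with the same 6 libraries. With Benjamini-Hochberg adjustment over the 4, the permutation p of 0.1 becomes 0.133.

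Within the gate, the groups were compared across 13269 genes with the same edgeR test. Of these, 2 were called (0.0151%), Cdkn2a as higher and Chrm3 as lower in the p16-DTR-labelled libraries (0.00754% each), while 1786 (13.5%) had an unadjusted p under 0.05. The values of 2436 genes (18.4%) did not overlap between the groups, 7.56% of genes being higher and 10.8% lower in the p16-DTR-labelled libraries.

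Cdkn2a (chromosome 4, 89274471 to 89294653), whose p16 and ARF transcripts are not separated by these counts, stood at 4.81, 5.52 and 5.38 CPM in the p16-DTR-labelled libraries and at 0, 0 and 0.134 in the controls. These values rest on 184 UMIs against 1. The ratio of the pooled levels was 137, with a 95% exact interval of 24.2 to 5425 that covers counting error only. The fitted log2 fold change of 6.68 (SE 0.59, edgeR adjusted p = 0.0189) rests on that single UMI, and the gene passed the filter on low counts through the p16-DTR-labelled libraries alone. It was called in 2 of 6 fits without 1 library. Cells with no Tnc UMI had 5.93, 5.73 and 3.83 against 0.0278, 0.136 and 0.187 CPM, so the difference was not confined to the gate.

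By cell, 117 of 1334 gated cells in the p16-DTR-labelled libraries had a Cdkn2a UMI and 1 of 1015 in the controls. Per library this was 8.62% ± 1.12 (SD, n = 3) in the first group, and 2.37% ± 0.195 is expected at 5000 UMIs per cell, with 9 shallower cells left out. Neutrophils, which serve as a comparison for free RNA, had 3.92% ± 1.53 at depth and 1.10% ± 0.444 at 5000 UMIs in the same libraries, and B cells had 18.1% ± 2.43 and 6.02% ± 0.783. Gated cells thus lay between these classes. A tdTomato entry of the reference gave 14 UMIs in 14 gated cells of the p16-DTR-labelled libraries and 0 in 1015 control cells, which allows a share of up to 0.296% of cells with a UMI, a limit for counting error only that pools 3 mice. In the same p16-DTR-labelled libraries tdTomato UMIs were found in 0.998% ± 0.369 of gated cells, 1.13% ± 0.468 of B cells and 0.0846% ± 0.0754 of neutrophils (SD, n = 3), and none of these classes had one in the controls. At 5000 UMIs per cell, 0.184%, 0.323% and 0.0124% are expected in these 3 classes.

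Chrm3, the muscarinic acetylcholine receptor M3 (chromosome 13, 9875486 to 10360847), had 2.23, 4.67 and 2.90 CPM in the p16-DTR-labelled libraries and 17.4, 25.4 and 18.9 in the controls. The groups were well apart, and the log2 fold change was -2.57 (SE 0.26, edgeR adjusted p = 0.0271). It was called in 3 of 6 fits without 1 library. Cells with no Tnc UMI had 3.94, 10.8 and 12.35 against 18.5, 15.3 and 15.6 CPM, which did not overlap either. Without p16-DTR library 1, p16-DTR library 3 or control library 1, no gene was called in the gate.

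The 8 genes with the next smallest p were not called by edgeR, with edgeR adjusted p of 0.0546 to 0.0582, and their groups did not overlap. DESeq2 called all 8, with DESeq2 adjusted p from 1.38e-11 for Lsmem1 to 0.000307 for Tdp2. Cxcl1, a chemokine for neutrophils, had 17.6, 16.1 and 16.1 CPM against 126, 77.4 and 44.6, and in cells with no Tnc UMI 31.4, 23.1 and 38.5 against 112, 59.8 and 41.1. Nop58, a core protein of small nucleolar ribonucleoproteins, averaged 129 ± 20.4 in the p16-DTR-labelled libraries against 290 ± 47.9 CPM, and Lsmem1, a membrane protein, 32.5 ± 8.10 against 88.7 ± 13.5. Pi15, a peptidase inhibitor, averaged 335 ± 15.2 against 193 ± 21.7. Dkk3, a secreted Dickkopf protein, averaged 142 ± 0.314 against 96.5 ± 1.41, and Stim1, the calcium sensor of the endoplasmic reticulum, 361 ± 29.9 against 207 ± 22.5. Tdp2 and Polg2, which act in repair of DNA ends and in mitochondrial DNA replication, averaged 18.0 ± 0.617 against 30.9 ± 2.31 and 28.8 ± 4.03 against 55.5 ± 6.17.

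**Figure D5:**
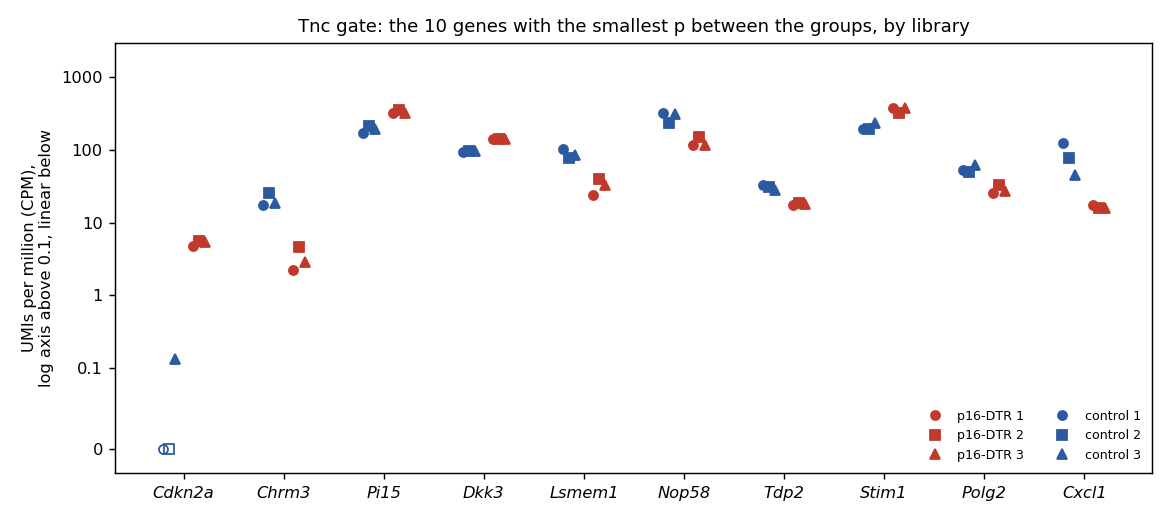
Levels in CPM (vertical axis, logarithmic above 0.1 and linear below) in the Tnc gate of each library for the 10 genes with the smallest p between the groups; open circles and squares lie at 0. The 3 values of the p16-DTR-labelled libraries (red) and the 3 control values (blue) do not overlap for any of these genes. By edgeR 2 of them, Cdkn2a and Chrm3, were called, and by DESeq2 all 10.

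Of the given markers, Adamtsl2 differed most in size between the groups. It had 167, 192 and 245 CPM in the p16-DTR-labelled libraries and 71.1, 121 and 121 in the controls, with no overlap, a log2 fold change of 0.98 (SE 0.21) and an edgeR adjusted p of 0.0950. Cells with no Tnc UMI had 160, 190 and 219 against 81.4, 129 and 108. Scube2 averaged 376 ± 73.0 against 532 ± 62.4 CPM, also without overlap (log2 fold change -0.49, edgeR adjusted p = 0.193). Ltbp1, Fgf10, Col13a1 and Cdkn1a overlapped between the groups, with log2 fold changes of 0.32, -0.09, -0.27 and -0.01.

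By edgeR, none of the 16 gene lists had a called member between the groups within the gate, apart from Cdkn2a in the arrest list. DESeq2, which called 369 genes in all, gave adjusted p of 0.000122 for Adamtsl2 and 3.52e-05 for Cxcl1 and also called the list members Scube2 and Dkk3. The glucocorticoid-induced list had a median log2 fold change of 0.466 against -0.00259 over all genes, and 15 of its 18 genes lay above 0. For 10 of the 18, counted in either direction, the groups did not overlap, beside 18.4% of all genes. The contractile list had a median of 0.517, with 2 of 17 genes not overlapping. The summed smooth muscle markers ran from 23.2 to 307 CPM in the gate of the p16-DTR-labelled libraries and from 53.7 to 117 in that of the controls, and their part in the contractile values was not tested.

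Whether the group difference itself differed between gated cells and cells with no Tnc UMI was tested as an interaction over 14926 genes. No gene was called by edgeR (0%), 921 (6.17%) had an unadjusted p under 0.05, and DESeq2 called 7. The smallest edgeR p belonged to Cxcl1, with an interaction of -1.07 on the log2 scale (SE 0.15, edgeR adjusted p = 0.489), followed by Dennd5b, Chrm3, Tmeff2 and B4galt1 with adjusted p up to 0.516. The calls by DESeq2 included Cxcl1, Tmeff2, Chrm3 and B4galt1, with DESeq2 adjusted p of 1.28e-05, 0.00153, 0.00834 and 0.0479. Whether a group difference was particular to the gated cells thus depended on the tool.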

How the data were processed

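The authors deposited raw UMI counts per gene and barcode for 6 libraries, without normalization, and the file headers name Cell Ranger 8.0.1. The build mm10 is named in the submitters' processing notes, and 30934 of 31054 features matched GENCODE M21, used for positions. How barcodes were called as cells is not given in the sources used here. Labels did not state strand settings for overlapping genes.

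Members were found by the UMI rule given above. UMIs were summed per library and class and tested with edgeR 4.0.16 (R 4.3.3) quasi-likelihood fits, after filterByExpr and with TMM factors, and p-values were adjusted by Benjamini-Hochberg over all genes tested. The group comparison used the group alone, the class comparison a library block, and the interaction both. CPM values are untransformed shares of summed UMIs. Shares were tested with exact two-sided permutations over libraries. The thinned gate is the mean of 50 random draws, and thinned shares of cells with a UMI are hypergeometric expectations. Doublets were predicted with Scrublet (scanpy 1.11.5, 30 components) and kept, but left out in an alternative. The fits were tested on simulated data.

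Members, markers and the 16 gene lists were chosen with earlier results of these data known. Between classes, named genes were called, had the same sign in 6 of 6 libraries and at least 20 CPM in the higher class, up to 12 per direction by fold, plus up to 4 called members of each list. Between groups, the 10 smallest p were named because fewer than 10 genes were called. The gate genes, given markers, Cdkn2a, Cdkn1a and Scube2 are always named. Other list members were named after their values were seen. No pair of libraries within a group agreed within sampling noise, as a library deposited again would (chi-square per degree of freedom 5.99 to 12.7). The alternatives were DESeq2 1.42.0, RLE size factors, no filter on low counts, other Tnc limits, a depth range of 10000 to 40000 UMIs, stricter gates, a replicate block and leaving out each library.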

Additional observations from a re-analysis of the deposited data

How the results depend on the processing

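Alternatives changed the number of calls between groups within the gate far more than the direction of single genes. In place of 2 genes, DESeq2 called 369, no filter on low counts 273, cells of 10000 to 40000 UMIs 73, cells without adventitial transcripts 64, cells with no UMI of Pecam1, Epcam, Cldn18 or Msln 36, and cells that were not predicted doublets 17. RLE size factors gave 2 and at least 3 Tnc UMIs gave 3. Leaving out 1 library gave 0 to 11 calls, with none without p16-DTR 1, p16-DTR 3 or control 1, 8 without control 3 and 11 without control 2. The cause was not tested. For the interaction, DESeq2 called 7 genes, no filter called 119, and leaving out 1 library gave 0 to 6, the 6 being without control 3. The class comparison gave 1256 to 1767 calls without single libraries and 1372 to 1978 under the others, against 1729. Without the filter on low counts 615 of 1744 calls were higher. Without adventitial transcripts 56 of 1641 calls tested again had the opposite sign, and of the genes named these were Fbln2 and Col15a1, at 1.78 and 0.43 on the log2 scale.

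The share of alveolar fibroblasts in the gate differed by 11.9 to 20.8 percentage points without single libraries (exact permutation p = 0.2, the smallest then possible), by 5.09 after thinning, by 1.95 of barcodes with no Ptprc UMI, and by 12.6 to 20.7 under the others. Same-numbered libraries did not deviate together (correlations 0.0658, -0.0240 and -0.00389). The labels do not say whether the numbers pair the mice, and such correlations cannot settle it. A replicate block gave an exact p of 0.25 for the share, the smallest possible, 2 calls in the gate, of which Chrm3 was shared with the unblocked fit, and a log2 fold change of 1.22 for Tnc in all alveolar fibroblasts. The fold of Cdkn2a in the gate rests on 1 UMI in the controls.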

Other observations

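The 5 cycling markers summed to 0.822 to 6.38 CPM in the gate and to 1.51 to 2.62 CPM in alveolar fibroblasts with no Tnc UMI. Upk1b, a uroplakin gene counted among mesothelial markers, stood at 230 to 314 CPM in the gate and at 251 to 328 CPM in cells with no Tnc UMI, while the mesothelial markers as a whole reached no more than 315 CPM in the gate. In Pi16 fibroblasts Upk1b averaged 11.9 ± 6.84 CPM.

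Thbs1 averaged 1495 ± 179 CPM in fibroblasts with at least 2 Hhip UMIs and 1465 ± 267 in the gate (SD, n = 6). Ctgf averaged 219 ± 62.7 CPM in those Hhip fibroblasts and 857 ± 162 in the gate.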
